A study of Mus musculus with 27 samples.

Results

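Control mouse oocytes that had passed the germinal vesicle (GV) stage were set against control oocytes at that stage, gene by gene. The comparison takes 7 of the series' 27 RNA-seq libraries and the 15244 genes that are listed in both of the deposited count tables. The post-GV group holds 3 libraries from females heterozygous for a loss of the m6A reader Ythdf2 (Ythdf2+/-), on a CB6F1 X C57BL/6 background. The GV group holds 4 libraries from females with both copies of the m6A writer gene Mettl3 floxed but no Cre (Mettl3f/f Zp3-Cre-), on a BDF1 X C57BL/6 X Jax#003651 background; the Zp3 promoter would drive Cre in growing oocytes. Each library was made by SMART-seq2 from the oocytes of 1 mouse, as the labels describe the collection, so a library is an animal and not a single cell. Stage, experiment, strain and genotype all change together between the groups, and their parts in any difference below cannot be told apart. The labels name neither the animals' age, nor a hormone treatment, nor the exact meiotic stage of the post-GV oocytes. The comparison asks how the stored transcriptome differs as oocytes leave prophase arrest, in the controls of 2 separate experiments.

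A fully grown mouse oocyte rests in meiotic prophase with an intact nucleus, the germinal vesicle, and with a store of maternal mRNAs made during growth. When maturation resumes, cyclin B with CDK1 drives nuclear envelope breakdown and spindle assembly while transcription stays silent, so mRNA levels then change through decay and through changes in poly(A) tails. Cytoplasmic polyadenylation elements, short U-rich motifs near the 3' end, direct tail lengthening and translation of many dormant mRNAs, and the BTG4 adaptor with the CCR4-NOT deadenylase removes others. SMART-seq2 primes cDNA on poly(A) tails, so a level here is that of captured polyadenylated RNA and depends on tail length as well as on copy number.

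Total counts per library were 25015081, 12409822 and 23711254 in post-GV controls 1 to 3, against 15133294, 8375063, 9479444 and 10302024 in GV controls 1 to 4. All 14 oocyte marker genes, zona and oocyte-specific genes among them, had reads in every library. Levels are given as CPM, read counts relative to the library total after TMM scaling. The first principal component of log2 CPM held 55.0% of the variance and parted the groups. The second held 29.3% and ran within each group, from post-GV control 3 at one end to post-GV control 2 and GV control 3 at the other. Post-GV controls 1 and 3 correlated at 0.902 and controls 2 and 3 at 0.826 across 13598 genes, against 0.868 to 0.965 among GV libraries; this is a description across genes, which are not independent. The authors' batch-adjusted columns move post-GV controls 1 and 2 together and control 3 the opposite way (the adjustments correlate at 0.972 between controls 1 and 2, and at -0.849 and -0.876 with control 3, across 9200 genes), and control 3 moves with 1 of the 2 libraries labelled Ythdf2-/- (0.882). Control 3 is thus the only control of the second of 2 apparent batches. Within the batch of controls 1 and 2, set against all GV controls, 4663 genes were called, 1751 higher and 2912 lower.

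Of 13598 genes tested, 3938 (29.0%) differed between post-GV and GV controls at an adjusted p under 0.05 (edgeR quasi-likelihood test with Benjamini-Hochberg adjustment, used for every adjusted p below). There were 1611 higher genes (11.8%) and 2327 lower genes (17.1%) in post-GV controls, of which 1442 and 2252 lay past 2-fold. Without regard to the test, every post-GV library lay above every GV library for 2125 genes (15.6%) and below for 3284 (24.2%). The median log2 fold change over all tested genes was -0.05. Scaling by total counts in place of TMM lowers all log2 fold changes by 0.295 at the median and turns the split to 979 higher and 3012 lower, while RLE scaling raises them by 0.154 and gives 1876 higher and 1994 lower. Leaving out single libraries gave 1790 to 4663 called genes, with the fewest without post-GV control 1; without GV control 2 there were 2317 and without GV control 4 there were 2048. A list of 26 genes of meiotic maturation held 3 rises and 9 falls, with a median of -0.43. Every one of the 3938 genes, where it was still tested, kept its direction in each of those fits and under each scaling. The list counts below are descriptions to be read beside these shares over all genes.

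**Figure D1:**
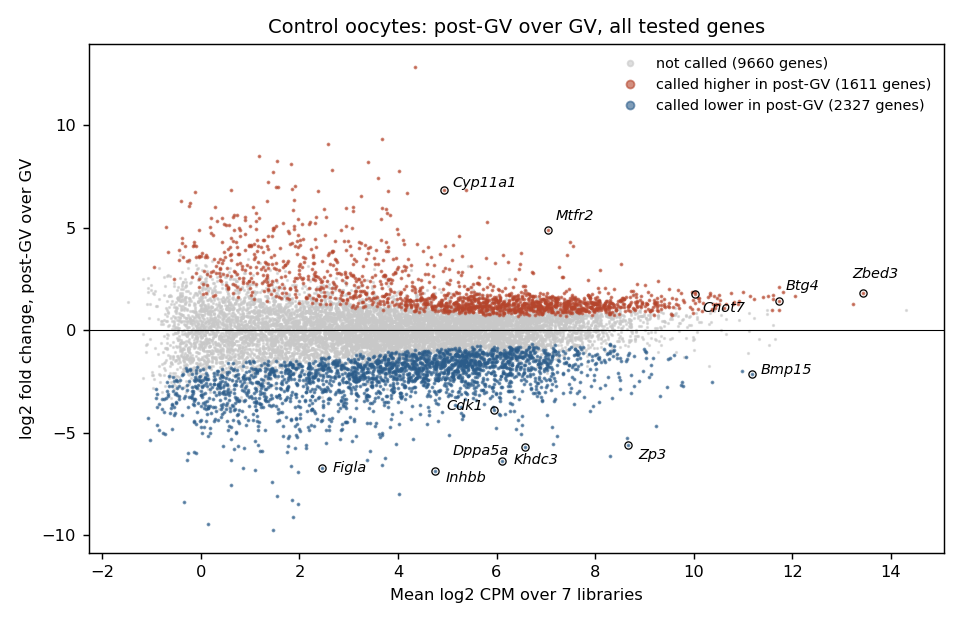
Each point is 1 of 13598 tested genes; the x axis is the mean log2 CPM over the 7 control libraries and the y axis the log2 fold change, post-GV over GV. The 1611 genes called higher (red) include Zbed3, Btg4 and Mtfr2, and the 2327 called lower (blue) reach further from 0 at high levels, with Zp3, Khdc3 and Dppa5a among them.

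Genes for the egg coat and for signals that oocytes secrete were among the largest falls. Zp3, a glycoprotein of the zona pellucida that binds sperm, stood at 57.4, 26.5 and 58.8 CPM in post-GV controls, against 3558, 1691, 1225 and 2719.9 CPM in GV controls. Every post-GV library lay below every GV library (log2 fold change -5.59 ± 0.55, adjusted p = 0.000544). Zp2, its partner in the coat, had 99.0, 65.0 and 142 CPM in post-GV controls, against 4395, 1719.7, 1437 and 2892 CPM in GV controls (log2 fold change -4.68 ± 0.53, adjusted p = 0.000966). The cross-linking zona protein Zp1 fell less, with 91.5, 37.6 and 174 CPM in post-GV controls, against 1708, 656, 491 and 1174 CPM in GV controls (log2 fold change -3.32 ± 0.63, adjusted p = 0.00673; -4.03 without post-GV control 3). In each of these 3 genes the groups were far apart. Bmp15, an oocyte-secreted growth factor that acts on cumulus cells, had 966, 561 and 1556 CPM in post-GV controls, against 5155, 4153, 4047 and 4868 CPM in GV controls (log2 fold change -2.15 ± 0.37, adjusted p = 0.00468). Its partner Gdf9 had 3363, 1611 and 2153 CPM in post-GV controls, against 5975, 2804, 2229.9 and 4489 CPM in GV controls, and the groups overlapped (log2 fold change -0.71 ± 0.41, adjusted p = 0.224). Gja4, the connexin of oocyte-to-granulosa gap junctions, had 14.0, 8.14 and 15.9 CPM in post-GV controls, against 616, 334, 266 and 459 CPM in GV controls (log2 fold change -5.04 ± 0.45, adjusted p = 0.000449). Of the list's 13 genes 1 rose and 8 fell, with a median log2 fold change of -2.29. The riser was Oosp3, an oocyte-secreted protein, with 2332, 2100.1 and 2613 CPM in post-GV controls, against 967, 1176, 899.7 and 835 CPM in GV controls (log2 fold change 1.28 ± 0.24, adjusted p = 0.00651). Its relative Oosp1 had 2545, 2049 and 1516 CPM in post-GV controls, against 1114, 1280.3, 1353 and 1135 CPM in GV controls and missed the threshold (adjusted p = 0.0596). Among members picked after their values were seen, Fgf8, an oocyte-secreted growth factor, had 1.804, 1.05 and 1.95 CPM in post-GV controls, against 91.7, 50.8, 32.7 and 63.7 CPM in GV controls (log2 fold change -5.20 ± 0.50, adjusted p = 0.000523).

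**Figure D2:**
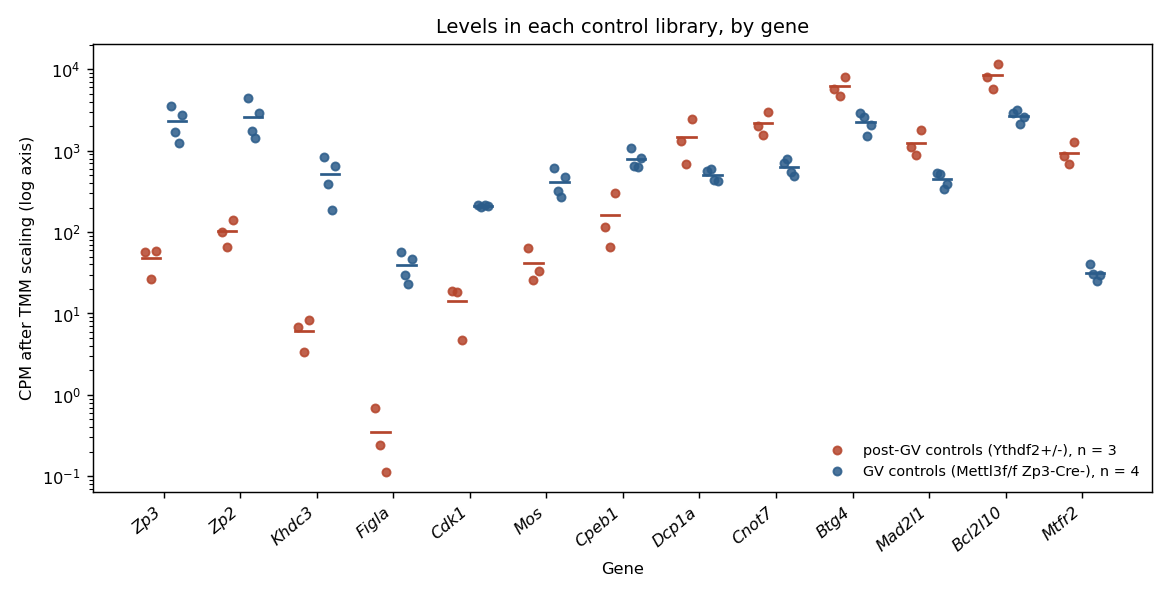
Levels of 13 genes in each control library, on a log axis of CPM after TMM scaling; each point is a library, red for the 3 post-GV controls and blue for the 4 GV controls, and bars mark group means. The groups do not overlap in any of the 13 genes, with Zp3 to Cpeb1 below and Dcp1a to Mtfr2 above their GV levels. The 13 were chosen for display, and overlapping genes such as Ccnb1, Gdf9 and Dazl are not shown. Over all tested genes, every post-GV library lay above every GV library for 15.6% and below for 24.2%.

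Most members of the subcortical maternal complex, a protein assembly under the oocyte membrane that early embryos need, fell as well. Khdc3, its RNA-binding member, had 6.83, 3.39 and 8.25 CPM in post-GV controls, against 829, 384, 185 and 647 CPM in GV controls (log2 fold change -6.37 ± 0.66, adjusted p = 0.000721). Nlrp14 had 1047, 624 and 1191 CPM in post-GV controls, against 5735, 2761, 2749.9 and 4018 CPM in GV controls (log2 fold change -2.0001 ± 0.38, adjusted p = 0.0066). Padi6, which builds the cytoplasmic lattices, had 655, 249 and 1395 CPM in post-GV controls, against 4882, 1671, 1057 and 2791 CPM in GV controls, overlapped between the groups and did not pass (adjusted p = 0.0743). In all 6 of 9 tested members fell, 1 rose and the median was -2.14. The riser was Zbed3, another member of the complex, with 22373, 13147 and 36556 CPM in post-GV controls, against 8251, 7769.9, 4789.6 and 6333 CPM in GV controls (log2 fold change 1.82 ± 0.38, adjusted p = 0.00933). Ooep and Tle6, picked after their values were seen, fell by 3.20 ± 0.29 and by 3.93 ± 0.58 on the log2 scale.

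Genes of egg activation and fertilization moved down in part, with 6 of 15 lower and 1 higher (median -0.94). Plat, the tissue plasminogen activator, had 420.0, 142 and 194 CPM in post-GV controls, against 2617, 1484, 1251 and 1563 CPM in GV controls (log2 fold change -2.78 ± 0.46, adjusted p = 0.00404). Pla2g4c, an oocyte phospholipase, had 953, 591 and 1102 CPM in post-GV controls, against 1036, 1239, 1110.1 and 1413 CPM in GV controls, with overlap and no call. The sperm receptor Izumo1r, picked after its values were seen, fell to 28.1, 15.1 and 38.4 CPM in post-GV controls, against 215, 177, 125 and 208 CPM in GV controls (log2 fold change -2.74 ± 0.39, adjusted p = 0.00212).

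The transcription factors that set up the oocyte program did not move together: 3 of 12 rose and 3 fell, and the median of 0.08 turns to -0.28 with total counts and to -0.37 without post-GV control 3. Figla, which switches on the zona genes, had 0.687, 0.242 and 0.115 CPM in post-GV controls, against 57.6, 30.1, 23.0 and 47.2 CPM in GV controls (log2 fold change -6.72 ± 0.72, adjusted p = 0.000799; -7.76 without post-GV control 1). Obox2, an oocyte homeobox gene, had 2506, 2391 and 2254 CPM in post-GV controls, against 1142, 1299, 1038 and 1102 CPM in GV controls (log2 fold change 1.06 ± 0.23, adjusted p = 0.0103). The call was lost without post-GV control 1 (adjusted p = 0.0529). Its relatives Obox1 and Obox5 rose by 0.82 ± 0.27 and 0.96 ± 0.26 on the log2 scale, and both calls were lost without any library but post-GV control 2, with adjusted p of 0.087 to 0.137 for Obox1 and 0.0504 to 0.0836 for Obox5. The Obox genes are close copies, and reads shared between them could have been split by the counting.

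The kinases and cyclins of meiotic resumption went both ways. Cdk1, the kinase that drives entry into meiotic division, had 19.0, 18.4 and 4.76 CPM in post-GV controls, against 217, 201, 212 and 207 CPM in GV controls (log2 fold change -3.90 ± 0.49, adjusted p = 0.00141). Its cyclin partners were not called: Ccnb1 had 2461, 1672 and 3134 CPM in post-GV controls, against 2391, 1796, 1197 and 1598 CPM in GV controls (adjusted p = 0.297). Ccnb2 had 328, 229 and 441 CPM in post-GV controls, against 291, 243, 166 and 237 CPM in GV controls (adjusted p = 0.236). Cdk1 levels thus lay apart between the groups and cyclin B levels overlapped. Cdc25b, the phosphatase that activates CDK1, had 8.72, 4.92 and 9.57 CPM in post-GV controls, against 57.3, 68.1, 46.0 and 73.4 CPM in GV controls (log2 fold change -2.98 ± 0.36, adjusted p = 0.00118). Wee2, the oocyte kinase that holds CDK1 inactive, had 942, 659 and 1759 CPM in post-GV controls, against 856, 641, 495 and 648 CPM in GV controls, with overlap and no call (adjusted p = 0.138). Mos, which activates MAP kinase and underlies the later metaphase arrest, had 64.4, 26.04 and 33.3 CPM in post-GV controls, against 605, 323, 268 and 473 CPM in GV controls (log2 fold change -3.34 ± 0.45, adjusted p = 0.00184). The groups did not overlap for Mos.

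Of the cAMP regulators that keep prophase arrest, Gpr12 was called lower. Gpr12, one of the receptors that keep cAMP high, was near the lower limit of detection and had 0, 0 and 0.172 CPM in post-GV controls, against 0.524, 2.29, 2.05 and 2.55 CPM in GV controls (log2 fold change -4.80 ± 1.12, adjusted p = 0.0142). Without post-GV control 3 the other post-GV libraries are all at 0, and the fitted value of -7.73 is no measured size. The call was lost without post-GV control 1 (adjusted p = 0.0586). The related receptor Gpr3 was not called and had 31.1, 12.5 and 27.9 CPM in post-GV controls, against 56.5, 37.5, 17.4 and 43.4 CPM in GV controls (adjusted p = 0.284). Pde3a, the phosphodiesterase that lowers cAMP, had 36.2, 12.9 and 56.3 CPM in post-GV controls, against 33.8, 19.5, 9.26 and 20.4 CPM in GV controls (adjusted p = 0.323). The adenylyl cyclase Adcy3 had 4.04, 4.03 and 2.98 CPM in post-GV controls, against 1.57, 1.85, 0.445 and 0.792 CPM in GV controls and missed the threshold (adjusted p = 0.0575). Plk1, a kinase of division, was not called either and had 133, 62.6 and 181 CPM in post-GV controls, against 269.5, 124, 103 and 134 CPM in GV controls (adjusted p = 0.603). Over the list of 35 kinases, cyclins and their regulators, 7 rose and 10 fell; the median of -0.30 lies above 0 in 5 of the 7 fits that leave out a library, at most at 0.19 without GV control 3. Bcl2l10, a BCL2 family member abundant in oocytes, had 7943, 5769 and 11478 CPM in post-GV controls, against 2865, 3141, 2133 and 2590.3 CPM in GV controls (log2 fold change 1.65 ± 0.31, adjusted p = 0.00599). The securin Pttg1, which holds sister chromatids until anaphase, had 5100.1, 3641 and 6802 CPM in post-GV controls, against 2604, 3197, 2097 and 2514 CPM in GV controls (log2 fold change 0.99 ± 0.29, adjusted p = 0.0331). Its call was lost without any library but post-GV control 2 (adjusted p 0.0588 to 0.102). Picked after their values were seen, cyclin A2 (Ccna2) rose (log2 fold change 1.63 ± 0.28, adjusted p = 0.0044), as did the APC/C inhibitor Fbxo43 (log2 fold change 1.498 ± 0.34, adjusted p = 0.0126). Fzr1, the APC/C activator of prophase arrest, was picked in the same way and fell (log2 fold change -3.28 ± 0.40, adjusted p = 0.00115).

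Spindle and kinetochore genes held 5 rises and 11 falls among 28, with a median of -0.72. Mad2l1, the checkpoint protein that senses unattached kinetochores, had 1106, 875 and 1776 CPM in post-GV controls, against 531, 516, 337 and 387 CPM in GV controls (log2 fold change 1.4996 ± 0.32, adjusted p = 0.00936). Bub1b, another checkpoint kinase-like protein, had 852, 408 and 650.3 CPM in post-GV controls, against 928, 949.5, 681 and 869.8 CPM in GV controls and was not called (adjusted p = 0.31). Aurkb, the catalytic kinase of the chromosomal passenger complex, had 3.82, 3.39 and 2.58 CPM in post-GV controls, against 30.3, 27.8, 41.9 and 26.9 CPM in GV controls (log2 fold change -3.28 ± 0.38, adjusted p = 0.000982). The spindle assembly factor Tpx2 had 229, 165 and 440.4 CPM in post-GV controls, against 194, 191, 189 and 161 CPM in GV controls, with overlap and no call (adjusted p = 0.206). Of 2 more members picked after their values were seen, Birc5, the passenger complex subunit survivin, fell (log2 fold change -2.43 ± 0.34, adjusted p = 0.00198), and the kinetochore subunit Ndc80 rose (log2 fold change 1.34 ± 0.30, adjusted p = 0.012).

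Tubulins and actins parted. The beta-tubulin Tubb4b had 72.8, 49.3 and 62.6 CPM in post-GV controls, against 827, 421, 294 and 551 CPM in GV controls (log2 fold change -3.09 ± 0.40, adjusted p = 0.00162). Its relative Tubb2a had 19.4, 9.11 and 17.4 CPM in post-GV controls, against 496, 314, 226 and 474 CPM in GV controls (log2 fold change -4.62 ± 0.45, adjusted p = 0.000541). Every post-GV library lay below every GV library for both. Actb had 1404, 2422 and 276 CPM in post-GV controls, against 174, 359, 417 and 184 CPM in GV controls (log2 fold change 2.27 ± 0.63, adjusted p = 0.0264), and the groups overlapped. Its call was lost without any library but post-GV control 3 and GV control 3 (adjusted p 0.0564 to 0.0798), and its log2 fold change was 1.54 without post-GV control 2. In total 7 of 16 fell and 3 rose (Actb, Actg1 and Tmsb4x), with a median of -1.22. The Actg1 call was lost without post-GV control 1, GV control 2 or GV control 4 (adjusted p 0.053 to 0.0586), and its log2 fold change of 2.61 ± 0.65 was 1.92 without post-GV control 2. The list of cortex and actin regulators, which place and anchor the spindle, had 5 rises and 2 falls among 15 (median 0.50). Rac1, a small GTPase of the cortex, had 799, 631 and 794 CPM in post-GV controls, against 328, 384, 301 and 308 CPM in GV controls (log2 fold change 1.17 ± 0.23, adjusted p = 0.00773). Spire1, an actin nucleator, had 695, 469 and 780.1 CPM in post-GV controls, against 288, 284, 217 and 273 CPM in GV controls (log2 fold change 1.29 ± 0.26, adjusted p = 0.00829). Its relative Spire2 was called lower and had the largest fall of the list, with a log2 fold change of -4.40 (-5.31 without post-GV control 1).

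Cohesin and meiotic chromosome genes had 3 rises and 2 falls among 17 (median 0.52), 29.4% called, close to the 29.0% of all genes. The core subunits Smc3 (log2 fold change 0.05 ± 0.32, adjusted p = 0.924) and Rad21 (log2 fold change 0.25 ± 0.42, adjusted p = 0.686) were not called. Hormad1, a protein of the meiotic chromosome axis, had 83.7, 92.2 and 2.69 CPM in post-GV controls, against 0.851, 1.53, 1.07 and 1.76 CPM in GV controls (log2 fold change 5.52 ± 0.98, adjusted p = 0.00522). Post-GV controls 1 and 2 were high, while control 3 lay close to the GV range.

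Genes that store and translate maternal mRNA moved both ways, 4 up and 7 down among 31 (median -0.27). Cpeb1, the protein that binds cytoplasmic polyadenylation elements in the arrested oocyte, had 115, 65.5 and 305 CPM in post-GV controls, against 1067, 644, 625 and 802 CPM in GV controls (log2 fold change -2.28 ± 0.52, adjusted p = 0.0128). The groups did not overlap, but the call was lost without post-GV control 1 (adjusted p = 0.0614), and without post-GV control 3 the log2 fold change was -3.20. Ybx2, an abundant mRNA-packaging protein of germ cells, had 4.98, 2.58 and 7.33 CPM in post-GV controls, against 28.7, 49.4, 44.0 and 82.5 CPM in GV controls (log2 fold change -3.36 ± 0.52, adjusted p = 0.0031). Zar1l, a relative of the storage factor Zar1, had 7.26, 5.89 and 17.02 CPM in post-GV controls, against 322, 241, 250.2 and 281 CPM in GV controls (log2 fold change -4.76 ± 0.45, adjusted p = 0.000523; -5.46 without post-GV control 3). Zar1 itself had 607, 291 and 381 CPM in post-GV controls, against 841, 525, 522 and 895 CPM in GV controls and was not called (adjusted p = 0.15). The translational activator Dazl was not called either, with 1072, 916 and 2071 CPM in post-GV controls, against 1014, 1123, 919 and 1108 CPM in GV controls (adjusted p = 0.397). Ybx2 and Zar1l thus lay apart between the groups where Zar1 and Dazl overlapped. Lin28a, an RNA-binding regulator of let-7, had 71.3, 52.9 and 120.4 CPM in post-GV controls, against 25.4, 28.4, 12.4 and 25.9 CPM in GV controls (log2 fold change 1.83 ± 0.39, adjusted p = 0.00985). Lsm14a, a P-body component, had 971, 841 and 1485 CPM in post-GV controls, against 308, 701, 539.8 and 492 CPM in GV controls (log2 fold change 1.11 ± 0.33, adjusted p = 0.0353). The Lsm14a call was lost without any library but post-GV control 2 and GV control 2 (adjusted p 0.0597 to 0.113). Pabpc1l, the poly(A)-binding protein of oocytes, picked after its values were seen, had 4.04, 2.26 and 6.07 CPM in post-GV controls, against 115, 84.9, 62.5 and 128 CPM in GV controls (log2 fold change -4.56 ± 0.47, adjusted p = 0.000625).

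The deadenylation and decay machinery had a median of 0.72 on the log2 scale over 34 genes, with 9 rises and 5 falls. Btg4, the adaptor that recruits CCR4-NOT to maternal mRNAs during maturation, had 5776, 4635 and 8009.7 CPM in post-GV controls, against 2885, 2609, 1518 and 2084 CPM in GV controls (log2 fold change 1.43 ± 0.32, adjusted p = 0.0116). Cnot7, the catalytic deadenylase, had 1988, 1545 and 3014 CPM in post-GV controls, against 713, 797, 541 and 493 CPM in GV controls (log2 fold change 1.78 ± 0.31, adjusted p = 0.00477). Dcp1a, a subunit of the decapping complex, had 1322, 693 and 2425 CPM in post-GV controls, against 557, 593, 441 and 422 CPM in GV controls (log2 fold change 1.56 ± 0.39, adjusted p = 0.0193). Every post-GV library lay above every GV library for all 3 genes. The Dcp1a call was lost without post-GV control 1 (adjusted p = 0.0541) and without GV control 4 (adjusted p = 0.0667), and its log2 fold change was 0.92 without post-GV control 3.

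Other decay genes of the maturation list were not called. Cnot6l, the partner deadenylase of maturing oocytes, had 321, 317 and 489.8 CPM in post-GV controls, against 295, 668, 605 and 602 CPM in GV controls (adjusted p = 0.262). Dcp2, the decapping enzyme, had 160.3, 113 and 167 CPM in post-GV controls, against 63.5, 136, 112 and 80.6 CPM in GV controls (adjusted p = 0.193). Zfp36l2, an AU-rich element binder, had 17.8, 44.7 and 4.24 CPM in post-GV controls, against 5.37, 12.5, 17.7 and 8.89 CPM in GV controls (adjusted p = 0.309). In all 3 the groups overlapped. Its relative Zfp36 had 115, 206 and 24.98 CPM in post-GV controls, against 3.93, 4.36, 5.16 and 4.58 CPM in GV controls (log2 fold change 4.68 ± 0.62, adjusted p = 0.00168; 3.94 without post-GV control 2). Zfp36 is also an immediate-early gene. Cnot10, a scaffold subunit of CCR4-NOT, had 12.5, 17.9 and 7.74 CPM in post-GV controls, against 61.9, 36.8, 32.5 and 48.0 CPM in GV controls (log2 fold change -1.82 ± 0.40, adjusted p = 0.0111). The Cnot10 call was lost without post-GV control 1 (adjusted p = 0.0525). Cnot8, the paralog of Cnot7, was picked after its values were seen and had 453, 271 and 711 CPM in post-GV controls, against 191, 166, 110.2 and 144 CPM in GV controls (log2 fold change 1.65 ± 0.35, adjusted p = 0.0101).

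The 3 risers of the maturation list each carry a cytoplasmic polyadenylation element, written here as TTTTAT or TTTTAAT, in the last 100 bases of the annotated 3' UTR. The element stood in 3 of 3 genes of the maturation list and genotype pair that rose, in 1 of 9 that fell and in 3 of 16 that were not called. The 7 sites are shown in 30 bases each, because they place the same motif in genes of all 3 outcomes. Capitals mark the element, and the sequences are from GENCODE M21 transcripts on GRCm38, given 5' to 3' on the strand of the gene.
Btg4, chr9:51119797-51119826, plus strand: agataaatccctTTTTATgtctttttaaaa
Cnot7, chr8:40493038-40493067, minus strand: tcttaaggtacaTTTTATatcaataaaaat
Dcp1a, chr14:30527010-30527039, plus strand: caaatatatttTTTTAATaaaatttcaaaa
Ybx2, chr11:69941532-69941561, plus strand: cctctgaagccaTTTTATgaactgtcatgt
Wee2, chr6:40466784-40466813, plus strand: tgtaaataaagaTTTTATcttatccaaaga
Gdf9, chr11:53437854-53437883, plus strand: agagtgctgtggTTTTATgtgacggaagaa
H1foo, chr6:115950157-115950186, plus strand: cgattctgaagcTTTTATtgtctaataagc
Btg4, Cnot7 and Dcp1a rose, Ybx2 fell, and Wee2, Gdf9 and H1foo were not called. A match is a stretch of letters in the annotated end and not a measured site, and these libraries do not show which 3' end was used.

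Over all genes the element was more frequent among those that rose. It was found in 31.2% of 1537 higher genes with an annotated 3' UTR, in 13.1% of 2115 lower genes and in 18.4% of 8887 genes that were not called; over all tested genes it was 19.1%. The search took the transcript strand, and a stretch can match only 1 of the 2 spellings. The order held in each of 4 equal classes of mean level, from 23.2% higher, 10.3% lower and 14.7% not called in the lowest class to 36.6%, 16.8% and 21.9% in the highest. It held for UTRs of at least 100 bases (31.8%, 13.8% and 19.1%). Among genes called the same way in the knockout libraries it was 34.1% of 957 higher and 11.7% of 1146 lower genes. Other features moved beside it: the median A+T content of the window was 68.0% in higher genes, 63.0% in lower and 65.0% in uncalled genes. The AATAAA signal stood in the last 40 bases of 69.1%, 52.5% and 62.7%, and the median 3' UTR was 958, 699 and 1061 bases. The Pumilio motif TGTANAT stood in the last 100 bases of 10.1%, 8.84% and 10.5%. These shares are descriptions across genes, which are not independent, and the part of base composition and UTR length in them was not tested.

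**Figure D3:**
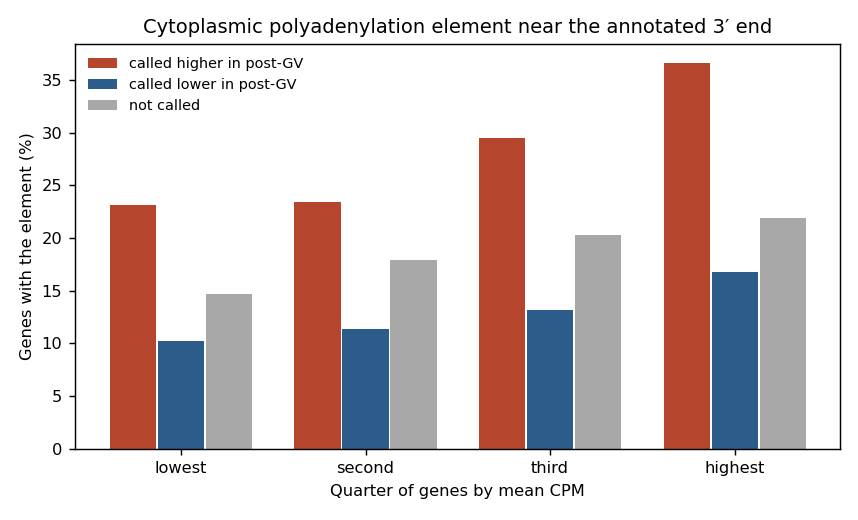
Share of genes with TTTTAT or TTTTAAT in the last 100 bases of the annotated 3' UTR, in percent, in 4 equal classes of mean CPM; red bars are genes called higher in post-GV controls, blue bars genes called lower and grey bars genes not called. In the highest class the shares are 36.6%, 16.8% and 21.9%.

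Few m6A genes were called. Of 18 writers, readers and erasers tested, 1 rose and 1 fell (11.1% called, against 29.0% of all genes), with a median of 0.09 that turns to -0.27 with total counts and to -0.23 without post-GV control 3. Ythdf2, of which the post-GV controls lack 1 working copy, had 106, 86.5 and 149 CPM in post-GV controls, against 219, 112, 124 and 199 CPM in GV controls, and the groups overlapped (log2 fold change -0.52 ± 0.33, adjusted p = 0.265). Mettl3, floxed but not deleted in the GV controls, had 39.5, 20.3 and 47.3 CPM in post-GV controls, against 39.3, 25.1, 11.2 and 24.3 CPM in GV controls (log2 fold change 0.52 ± 0.46, adjusted p = 0.422). Wtap, the adaptor of the writer complex, had 2345, 2050.1 and 4049 CPM in post-GV controls, against 1118, 1139.7, 464 and 1073 CPM in GV controls (log2 fold change 1.57 ± 0.38, adjusted p = 0.0167). Alkbh5, an m6A demethylase, had 207, 213 and 201 CPM in post-GV controls, against 399, 491, 329 and 568 CPM in GV controls (log2 fold change -1.11 ± 0.27, adjusted p = 0.0155). That call was lost without any of post-GV controls 1 and 2 and GV controls 2 and 4 (adjusted p 0.0509 to 0.0699). The readers Ythdf3 and Ythdf1 were not called, with log2 fold changes of 0.75 ± 0.29 (adjusted p = 0.0776) and -1.22 ± 0.44 (adjusted p = 0.0669).

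Maternal chromatin genes were seldom called, with 2 higher and 3 lower of 28; their median of 0.15 turns to -0.17 with total counts. H1foo, the linker histone of oocytes, had 5141, 2657 and 6001 CPM in post-GV controls, against 3823, 1865, 1073 and 2492 CPM in GV controls, with overlap and no call (adjusted p = 0.123). Dnmt1, the maintenance DNA methyltransferase, had 154, 115 and 286 CPM in post-GV controls, against 823, 924, 983 and 1454 CPM in GV controls (log2 fold change -2.50 ± 0.39, adjusted p = 0.00325). Tet3, the oxidase that acts on the paternal genome after fertilization, had 1184, 974 and 1667 CPM in post-GV controls, against 506, 849, 897 and 997 CPM in GV controls (adjusted p = 0.144). Dppa3, which guards maternal methylation, had 3146, 2579 and 3307 CPM in post-GV controls, against 2171, 2257, 1749 and 1882 CPM in GV controls (adjusted p = 0.1). Of these 4 genes Dnmt1 alone passed.

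Of 22 small-RNA genes 9 fell and 1 rose, with a median of -0.94; over all genes 17.1% were lower and 11.8% higher, and the difference from them was not tested. Gtsf1, a partner of PIWI proteins, had 21.0, 13.0 and 33.2 CPM in post-GV controls, against 744, 548, 457 and 575 CPM in GV controls (log2 fold change -4.70 ± 0.42, adjusted p = 0.000449). Henmt1, which methylates the ends of piRNAs, is not in that list and is named as one of the 12 largest falls, with 6.96, 3.87 and 2.64 CPM in post-GV controls, against 231, 133, 95.8 and 169.7 CPM in GV controls (log2 fold change -5.12 ± 0.50, adjusted p = 0.000557). Dicer1, which makes the siRNAs of mouse oocytes, had 340.1, 258 and 675 CPM in post-GV controls, against 336, 341, 321 and 337 CPM in GV controls and was not called. The germ-cell helicase Ddx4 was the riser, with 369, 229.6 and 617 CPM in post-GV controls, against 171, 52.3, 63.4 and 141 CPM in GV controls (log2 fold change 1.92 ± 0.49, adjusted p = 0.0194). The call was lost without post-GV control 1 (adjusted p = 0.0544) and without GV control 2 (adjusted p = 0.0505). Among the falls, the Gtsf1 call held in each fit that leaves out a library. Those of Mael, Tdrkh, Ago2 and Piwil2 were lost in several such fits, and that of Dgcr8 without post-GV control 1 (adjusted p = 0.0576).

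Housekeeping complexes are given beside all tested genes, of which 29.0% were called, 11.8% higher and 17.1% lower. Differences from those shares were not tested. Mitochondrial ribosomal proteins held 26 falls and 1 rise among 77 (35.1% called, median -0.77). The largest fall was in Mrps22, at 23.5, 40.2 and 10.7 CPM in post-GV controls, against 307, 241, 206 and 254 CPM in GV controls (log2 fold change -3.34 ± 0.46, adjusted p = 0.00192). Nuclear genes of the respiratory chain held 13 falls and 2 rises among 80 (18.75% called, median -0.82), and proteasome genes 10 and 4 among 39 (35.9% called, median -0.79). Cytosolic ribosomal proteins were rarely called, 3 lower and 1 higher of 79 (5.06% called), and their median of -0.34 turned to 0.03 without post-GV control 3 and to 0.15 without GV control 3. Without post-GV control 2 it was -1.15, and that of the respiratory chain -1.43. In post-GV control 3 and GV controls 1 and 4 alone, the libraries with the lowest granulosa and cumulus marker sums of their groups, that median was -2.21 and that of the respiratory chain -2.41. Translation factors had 7 rises and 10 falls among 60, 28.3% called, close to the share of all genes (median -0.04, or 0.09 with RLE and 0.06 with upper-quartile scaling). Splicing factors had 1 and 2 among 30, 10% called (median 0.10, or -0.21 with total counts, and -0.14 to 0.57 on leaving out a library). Clustered histones had 6 falls and 1 rise among 21 (33.3% called, median -1.20). Most histone mRNAs lack a poly(A) tail, and their copies share sequence, so these counts are uncertain.

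**Figure D4:**
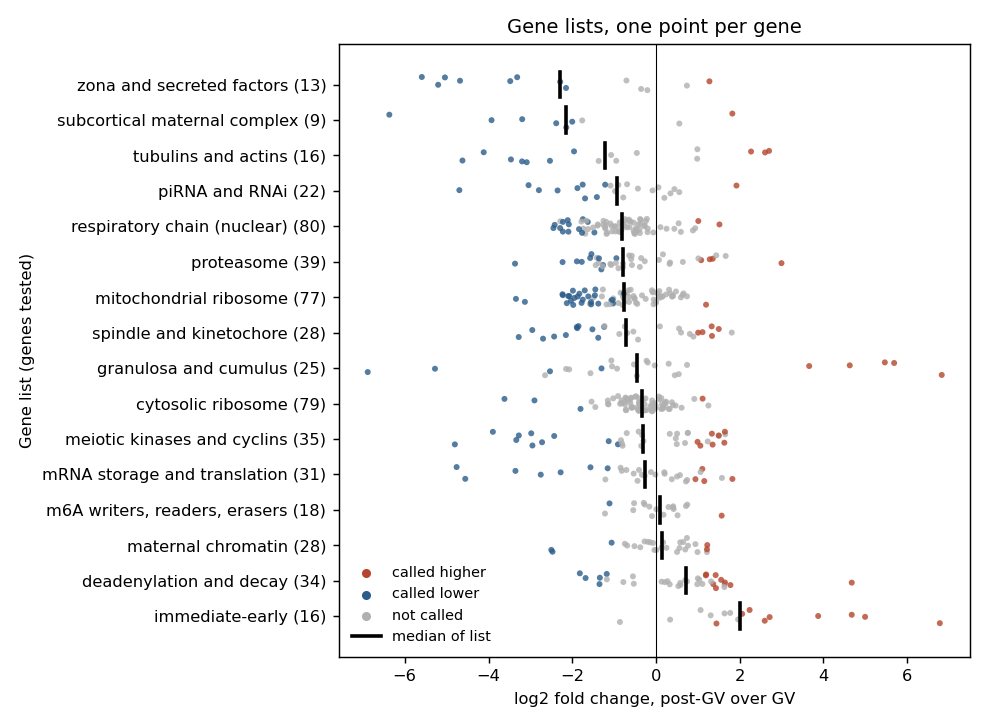
Each point is a gene of 1 of 16 lists, placed by its log2 fold change, post-GV over GV; black bars are list medians, red and blue points are genes called higher and lower in post-GV controls, and grey points were not called. Lists run from the lowest median at the top (zona and secreted factors, -2.29) to the highest at the bottom (immediate-early genes, 2.01).

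The 12 largest falls of abundant genes were taken among genes whose groups do not overlap, so their separation is given by that choice. Besides Zp2, Zp3, Khdc3, Gja4, Zar1l, Gtsf1, Henmt1 and Tubb2a, the 12 hold Dppa5a, an RNA-binding protein of pluripotent cells and oocytes, with 15.8, 5.48 and 10.1 CPM in post-GV controls, against 694, 440.2, 370.2 and 699 CPM in GV controls (log2 fold change -5.71 ± 0.50, adjusted p = 0.000449). Cpsf4l, a relative of a polyadenylation factor, had 17.5, 10.3 and 20.3 CPM in post-GV controls, against 989, 654, 549 and 849.5 CPM in GV controls (log2 fold change -5.57 ± 0.41, adjusted p = 0.000226). Ube2t, a ubiquitin-conjugating enzyme of the Fanconi pathway, had 18.1, 16.1 and 25.4 CPM in post-GV controls, against 898, 676, 474 and 764 CPM in GV controls (log2 fold change -5.14 ± 0.37, adjusted p = 0.000226). Csrnp2 completes the 12, with 12.6, 19.6 and 14.2 CPM in post-GV controls, against 263, 359, 290.4 and 385 CPM in GV controls (log2 fold change -4.39 ± 0.32, adjusted p = 0.000226). All 12 were also called lower in the knockout libraries, as were 54.7% of all control falls tested in both.

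The largest rises of abundant genes fell into 2 kinds by their values. Mtfr2, a regulator of mitochondrial fission, had 867, 681 and 1281 CPM in post-GV controls, against 40.4, 30.7, 24.8 and 29.8 CPM in GV controls (log2 fold change 4.91 ± 0.33, adjusted p = 0.000226). Tcl1b5, of the Tcl1 family of kinase co-activators, had 569.6, 439.6 and 613 CPM in post-GV controls, against 70.7, 88.2, 42.9 and 50.3 CPM in GV controls (log2 fold change 3.10 ± 0.32, adjusted p = 0.000622). The splicing protein Cdc5l had 225, 174 and 349 CPM in post-GV controls, against 9.10, 29.0, 38.4 and 11.1 CPM in GV controls (log2 fold change 3.51 ± 0.54, adjusted p = 0.00311). These 3 were highest in post-GV control 3. The other 9 were lowest in post-GV control 3. Sgk1, a serum-induced kinase, had 593, 1386 and 22.9 CPM in post-GV controls, against 20.4, 15.1, 17.003 and 17.4 CPM in GV controls (log2 fold change 5.25 ± 1.00, adjusted p = 0.00654). Sdc1, a cell-surface proteoglycan, had 1084, 1458 and 335 CPM in post-GV controls, against 151, 115, 88.2 and 145 CPM in GV controls (log2 fold change 2.94 ± 0.46, adjusted p = 0.00334). The secreted peroxidase Gpx3 had 341, 449.8 and 143 CPM in post-GV controls, against 55.6, 20.8, 16.4 and 31.8 CPM in GV controls (log2 fold change 3.32 ± 0.52, adjusted p = 0.00322). For Sgk1, Rgcc, Tnc, Phf20l1, Ncoa7, Chchd10 and Anxa2 the log2 fold changes of 3.00 to 5.25 fell to 2.27 to 4.08 without post-GV control 2, and all 7 stayed called; that of Rgcc was 5.19 without GV control 3.

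Granulosa and stroma markers were lowest in post-GV control 3 among the post-GV libraries, whereas blood, immune and endothelial markers were highest there. Control 3 is also the only control of its apparent batch, and batch and marker level cannot be told apart there. The 26 granulosa and cumulus markers in both tables, of 30 listed, summed to 4170.3, 7014 and 774 CPM in post-GV controls, against 1103, 2373, 5634 and 1082 CPM in GV controls. Post-GV control 3 was lowest and control 2 highest, the groups overlapped, and 4 of the markers were at 0 in post-GV control 3. Among the 25 tested, 5 rose and 4 fell, and the median of -0.46 turned to 0.47 without GV control 3 and was -1.15 without post-GV control 2. Cyp11a1, the first enzyme of steroid synthesis, had 838, 1287 and 34.1 CPM in post-GV controls, against 5.30, 1.20, 8.64 and 10.1 CPM in GV controls (log2 fold change 6.83 ± 1.14, adjusted p = 0.00411; 6.03 without post-GV control 2). Inhbb, an activin subunit of growing follicles, had 5.41, 6.93 and 0 CPM in post-GV controls, against 44.6, 360.2, 1458 and 75.9 CPM in GV controls (log2 fold change -6.88 ± 1.76, adjusted p = 0.0198). That call was lost without post-GV control 1 (adjusted p = 0.0736), and the log2 fold change was -7.54 without post-GV control 2 and -5.28 without GV control 3. Ptgs2 and Star, cyclooxygenase 2 and the steroid transport protein, are genes of granulosa cells after the ovulatory signal and were picked after their values were seen. Ptgs2 had 139, 363 and 21.3 CPM in post-GV controls, against 5.24, 1.85, 1.34 and 4.93 CPM in GV controls (log2 fold change 5.69 ± 0.91, adjusted p = 0.00354; 4.55 without post-GV control 2). Star had 38.2, 93.6 and 4.13 CPM in post-GV controls, against 1.44, 1.42, 2.76 and 1.67 CPM in GV controls (log2 fold change 4.63 ± 0.87, adjusted p = 0.00622; 3.49 without post-GV control 2). Both were lowest in post-GV control 3 among the post-GV libraries, as was the marker sum. Other granulosa markers went the other way. The called falls besides Inhbb were Wt1, Fshr and Nr5a2, with log2 fold changes of -5.28, -2.53 and -1.30. The Fshr and Nr5a2 calls were lost in several of the fits that leave out a library. In such pools, fewer cells of a type and less RNA per cell cannot be told apart.

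**Figure D5:**
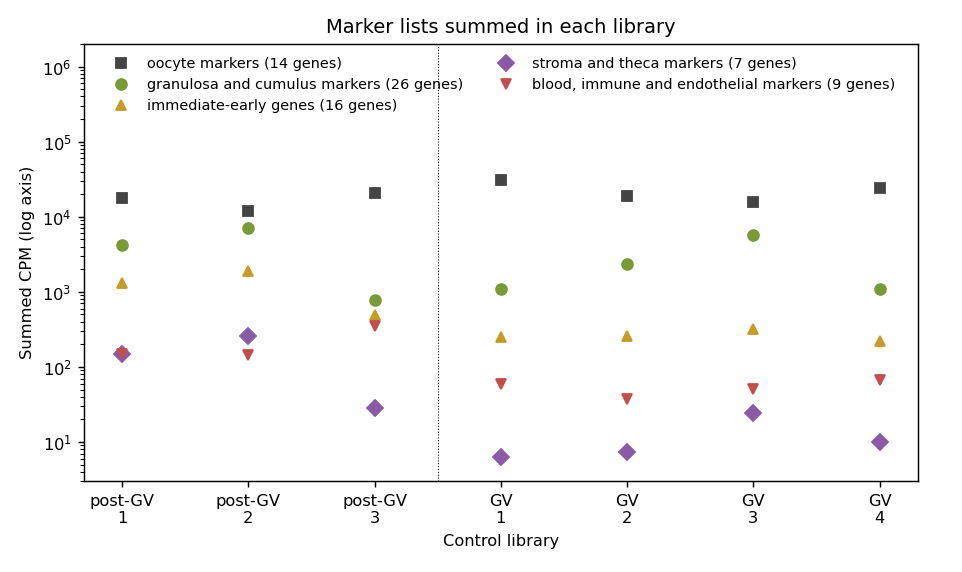
Summed CPM of 5 marker lists in each of the 7 control libraries, on a log axis, post-GV controls left of the dotted line and GV controls right of it. Granulosa and cumulus markers (green) run from 774 CPM in post-GV control 3 to 7014 CPM in post-GV control 2, while oocyte markers (grey squares) stay between 11753 and 30513 CPM.

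Stroma and theca markers, 7 of 11 in both tables, summed to 151, 255 and 28.0 CPM in post-GV controls, against 6.28, 7.42, 24.1 and 9.94 CPM in GV controls. Blood, immune and endothelial markers, 9 of 11 in both tables, summed to 149.7, 144 and 354 CPM in post-GV controls, against 59.0, 37.2, 50.5 and 67.9 CPM in GV controls. No sum of either list overlapped between the groups, and at most 2 markers of a list were at 0 in any control library. The stroma and theca sum was mostly Vim in post-GV controls, so it largely follows 1 gene. Of the 4 stroma and theca markers tested, 2 rose and 0 fell. Every post-GV library lay above every GV library for 2 of them and below for 1. Dcn had the lowest log2 fold change, -1.78, and was not called. Vim, an intermediate filament of mesenchymal and granulosa cells, had 143, 248 and 23.5 CPM in post-GV controls, against 1.31, 3.93, 16.2 and 5.28 CPM in GV controls (log2 fold change 4.37 ± 0.93, adjusted p = 0.00997; 3.59 without post-GV control 2 and 5.32 without GV control 3). Immediate-early genes, induced within minutes of a signal, held 9 rises and 0 falls among 16 (median 2.01) and summed to 1307, 1905 and 485 CPM in post-GV controls, against 249.8, 259.7, 325 and 222 CPM in GV controls. Ier3 had 288, 472 and 24.8 CPM in post-GV controls, against 1.31, 2.84, 3.83 and 1.58 CPM in GV controls (log2 fold change 6.78 ± 0.92, adjusted p = 0.00187; 5.98 without post-GV control 2). Dusp1, a MAP kinase phosphatase, had 242, 167 and 314 CPM in post-GV controls, against 124, 93.0, 56.5 and 80.7 CPM in GV controls (log2 fold change 1.44 ± 0.33, adjusted p = 0.0133). That call was lost without post-GV control 1 (adjusted p = 0.0505) or GV control 4 (adjusted p = 0.0512). The 9 rises were not all of one kind by library: Dusp1 was highest in post-GV control 3 and Ier3 lowest there. The part of somatic RNA in any of these differences was not tested. Without post-GV control 2 and GV control 3, the libraries with the highest granulosa sums, 3697 genes were called, 1585 higher and 2112 lower, and 3227 of them were among the 3938.

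Of 13 p53-related genes 4 rose and 1 fell (median 1.02). Cdkn1a, the cell-cycle inhibitor p21, had 45.5, 71.0 and 10.5 CPM in post-GV controls, against 0.589, 1.64, 1.16 and 1.14 CPM in GV controls (log2 fold change 5.23 ± 0.68, adjusted p = 0.00158, and 4.62 without post-GV control 2). Among the post-GV libraries it was lowest in control 3. Mdm2, the ligase that degrades p53, had 267, 186 and 408 CPM in post-GV controls, against 151, 120.1, 121 and 120.2 CPM in GV controls (log2 fold change 1.16 ± 0.30, adjusted p = 0.0199). Its call was lost without any of post-GV control 1 and GV controls 2 and 4 (adjusted p 0.0601 to 0.0697). Trp63, the p53 relative of resting oocytes, had 34.9, 20.9 and 46.3 CPM in post-GV controls, against 35.8, 29.7, 22.3 and 41.0 CPM in GV controls and overlapped. Heat shock genes held 4 falls and 1 rise among 16 (median -0.78), and the chaperone Hsp90aa1 had 2156, 1732 and 2714 CPM in post-GV controls, against 1839, 2282, 2519.6 and 2462 CPM in GV controls (adjusted p = 0.909). Genes of the 2-cell embryo, of which 7 of 13 listed in both tables were tested, had 2 falls and 0 rises and summed to 310.0, 244 and 264 CPM in post-GV controls, against 411, 335, 271 and 414 CPM in GV controls, with overlap.

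The knockout libraries of the same 2 experiments give the same stage contrast with other animals, though with the same strains and preparation and with further genotype differences. They also share the batches above: library 1 labelled Ythdf2-/- moved with post-GV controls 1 and 2, and library 2 with post-GV control 3. Libraries labelled Ythdf2-/- (post-GV, n = 2) were set against Mettl3f/f Zp3-Cre+ libraries (GV, n = 3), in which Mettl3 is deleted in oocytes. Mettl3 had 34.8 and 29.2 CPM in the libraries labelled Ythdf2-/-, against 3.01, 1.16 and 0.778 CPM in Cre+ GV libraries, which checks the Cre+ label. Ythdf2 had 233 and 198 CPM in the libraries labelled Ythdf2-/-, against 381, 473 and 434 CPM in Cre+ GV libraries. By these values the labelled knockouts held no fewer reads of the gene than their own heterozygous controls, at 86.5 to 149 CPM. Knockout and control libraries were TMM-scaled in separate fits. A count over the whole gene does not show whether the deleted part is read. Of 13917 genes tested, 4798 (34.5%) were called, 2480 higher (17.8%) and 2318 lower (16.7%). Of 1561 genes higher in post-GV controls and tested in both, 1484 lay on the same side (95.1%, against 49.7% of all 13132 genes tested in both), and 1001 were called on that side, which is 64.1% of the control calls and 40.9% of the 2447 knockout calls, and 0 on the other. Of 2270 lower genes, 2005 lay on the same side (88.3%, against 50.3% of all genes), and 1241 were called there (54.7% of the control calls and 55.5% of the 2236 knockout calls) and 41 were called on the opposite side. Leaving out a Cre+ library brought the calls to 2036, 1739 and 3028, without Cre+ libraries 1 to 3. With library 1 or library 2 labelled Ythdf2-/- alone, 1 of each batch, there were 4678 and 6426, the lone library being assumed to vary like the Cre+ libraries.

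For 21 of the 28 genes of the maturation list and genotype pair both contrasts had the same sign. Zp3 had 128 and 173 CPM in the libraries labelled Ythdf2-/-, against 5404, 5526 and 3031 CPM in Cre+ GV libraries (log2 fold change -4.95 ± 0.44, adjusted p = 0.00226). Cdk1 had 20.4 and 1.67 CPM in the libraries labelled Ythdf2-/-, against 225, 237 and 212 CPM in Cre+ GV libraries (-4.33 ± 0.95, adjusted p = 0.0137). Cpeb1 had 91.3 and 142 CPM in the libraries labelled Ythdf2-/-, against 1163, 935 and 929 CPM in Cre+ GV libraries (-3.11 ± 0.35, adjusted p = 0.00278). Btg4 had 5217 and 5108 CPM in the libraries labelled Ythdf2-/-, against 658, 724 and 674 CPM in Cre+ GV libraries (2.91 ± 0.25, adjusted p = 0.00226). Cnot7 had 2095 and 2301 CPM in the libraries labelled Ythdf2-/-, against 226, 223 and 189.5 CPM in Cre+ GV libraries (3.37 ± 0.27, adjusted p = 0.00226). These 5 were called in the same direction as in the controls. Mos was not: it had 1041 and 839 CPM in the libraries labelled Ythdf2-/-, against 634, 554 and 502 CPM in Cre+ GV libraries (0.74 ± 0.27, adjusted p = 0.072), against a log2 fold change of -3.34 ± 0.45 in controls. The stage difference itself differed between control and knockout libraries in a fit to all 12 (interaction -3.94 ± 0.56 on the log2 scale, adjusted p = 0.00693), as it did for 412 of 14772 genes (2.79%). Each stage has its own knockout, so stage and genotype cannot be told apart in that difference.

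Genes listed in only 1 of the 2 tables stayed out of the tests. There were 1060 in the post-GV table alone and 1354 in the GV table alone, with 0.111% and 0.0700% of the counts, and a gene that is not listed reached at most 5 counts in any library of that table. Their CPM are counts over the library total without TMM scaling, unlike the levels above. By mean level the leading 6 were Tnfaip6, Gsto2, Ctsk, Cav2, Egr2 and Slc36a2. Tnfaip6, a hyaluronan-binding protein of the expanding cumulus, had 148, 628 and 34.5 CPM in post-GV controls 1 to 3 and was not listed for GV oocytes. Gsto2, a glutathione transferase, had 97.7, 91.0, 58.8 and 84.1 CPM in GV controls 1 to 4 and was not listed for post-GV oocytes. Of the other 4, all of the post-GV table, the collagen-degrading protease Ctsk had 140.4, 1.21 and 0.633 CPM and the immediate-early gene Egr2 37.9, 69.8 and 3.58 CPM. Cav2 and Slc36a2 reached 96.2 and 55.0 CPM in post-GV control 2 and were lowest in post-GV control 3, at 1.01 and 7.21 CPM.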

How the data were processed

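RNA-seq libraries of mouse oocytes were compared from 2 tables, 1 for each experiment. Per the submitters' processing notes, CASAVA 1.8.2, cutadapt, STAR 2.4.2a, DESeq2 and the build mm10 were used; the counting tool and its strand setting are in none of the sources used here, so antisense and overlapping genes cannot be told apart. The authors deposited raw counts per gene, per the file headers, and listed a gene where it reached 6 counts in at least 1 library of a table. The authors also deposited, per the file headers, a normalized signal, which is the counts divided by 1 size factor per library, and batch-adjusted values on a log2 scale. The signal was used only to check the counts, and the log2 values only to find which post-GV libraries were adjusted together. Tables of stem cells and spermatids were not used. No column lacked a sample.

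The 2 count tables were joined by symbol. Genes passing edgeR's filterByExpr were tested with the quasi-likelihood test (edgeR 4.0.16, limma 3.58.1, R 4.3.3), TMM scaling and Benjamini-Hochberg adjustment over all tested genes at 0.05. Levels are CPM, counts relative to the TMM-scaled library total, and ± is the standard error of a log2 fold change. SMART-seq2 reads carry no molecular identifiers, so counts are not independent molecules. The title of 1 post-GV library repeats replicate 2 where its bracket gives 3, and it was taken as 3. Replicate numbers did not pair the libraries: residuals of same-numbered libraries correlated at -0.07, 0.04 and -0.53. Steps were tested on simulated data. In the layout of the controls, 100 genes were changed 2-fold and 100 were changed 4-fold, of 13327 genes. That share is far below the 29.0% called in the data, so the numbers found do not measure recovery in the data. In the layout of the controls, edgeR found 0 of 100 genes changed 2-fold and 44 of 100 changed 4-fold, with 1 false call. DESeq2 found 19 and 82 there, with 55 false calls. In the layout of the knockout libraries, edgeR found 1 and 31, with 4 false calls, and DESeq2 7 and 68, with 36.

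The members and gene lists were chosen with earlier results of these data known. Named genes are the maturation list with Ythdf2 and Mettl3; the 12 largest called rises and falls among genes at 5 or more by mean log2 CPM whose groups do not overlap; up to 3 members of each other list by mean CPM; the largest and smallest fold change where a list is described; and the 6 leading genes listed in 1 table. Mitochondrially encoded genes were not in both tables. For 3' UTR motifs, 14676 of 15244 symbols (96.3%) were found in GENCODE M21, and 92.2% of tested genes had an annotated 3' UTR. DESeq2 1.42.0, other scalings and filters, a fit to all 12 oocyte libraries, a replicate block and single libraries left out were alternatives. Sets of libraries with the highest or lowest granulosa markers were chosen after seeing the data.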

Additional observations from a re-analysis of the deposited data

Results flagged for a closer look

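In 9 of 172 groups of GV controls, 1 library lay further from the rest than Dixon's 95% critical value for 4 samples allows, a rate near the 1 in 20 groups that chance gives. Wtap had 464 CPM in GV control 3, against 1073 to 1139.7 CPM in the other GV controls. Eif1a had 60.8 CPM in GV control 3, against 21.4 to 27.02 CPM in the other GV controls, and Atp5a1 had 407 CPM in GV control 3, against 319.6 to 321 CPM in the other GV controls. Hspb1 had 2.76 CPM in GV control 3, against 3.78 to 3.99 CPM in the other GV controls. These 4 all have GV control 3 apart, the GV library with the highest sum of granulosa and cumulus markers, whose part in them was not tested. Mdm2 had 151 CPM in GV control 1, against 120.1 to 121 CPM in the other GV controls, and Mrpl3 had 71.7 CPM in GV control 1, against 43.8 to 44.6 CPM in the other GV controls. Tpx2 had 161 CPM in GV control 4, against 189 to 194 CPM in the other GV controls, and Hnrnpc had 301 CPM in GV control 4, against 365 to 371 CPM in the other GV controls. Obox1 had 941 CPM in GV control 2, against 758 to 783 CPM in the other GV controls.

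The stage difference in controls differed from that in knockout libraries for 12 of the 166 named genes (interaction in edgeR's quasi-likelihood fit to 12 libraries, Benjamini-Hochberg adjusted over 14772 genes, of which 412 passed). Plat, the tissue plasminogen activator, had log2 fold changes of -2.78 ± 0.46 in controls and 2.10 ± 0.27 in knockout libraries, a difference of -4.73 ± 0.58 (adjusted p = 0.00296). Mos had -3.34 ± 0.45 in controls and 0.74 ± 0.27 in knockout libraries, a difference of -3.94 ± 0.56 (adjusted p = 0.00693). Oosp3, an oocyte-secreted protein, had 1.28 ± 0.24 in controls and 4.46 ± 0.32 in knockout libraries, a difference of -3.03 ± 0.35 (adjusted p = 0.00209). All 3 were higher in post-GV libraries relative to GV libraries among the knockouts than among the controls. The difference was -3.57 ± 0.80 (adjusted p = 0.0371) for Mettl3, which is itself the gene deleted in the Cre+ libraries. It was -2.14 ± 0.42 (adjusted p = 0.0216) for Bub1b, -2.18 ± 0.40 (adjusted p = 0.0177) for Alkbh5, -1.47 ± 0.31 (adjusted p = 0.0293) for Obox2 and -1.54 ± 0.35 (adjusted p = 0.0386) for Spire1. Pla2g4c had -1.95 ± 0.47 (adjusted p = 0.0479), and Tcstv1, a gene of the 2-cell embryo, had -3.07 ± 0.53 (adjusted p = 0.0127). Hormad1, with 5.86 ± 1.30 (adjusted p = 0.0354), and the oocyte transcription factor Sohlh2, with 3.08 ± 0.64 (adjusted p = 0.0281), had the opposite sign. Stage and the 2 knockouts change together in this fit and cannot be told apart.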

How the results depend on the processing

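Against 3938 called genes, RLE scaling gave 3870, upper-quartile scaling (which shifts the median by 0.113) 4013, TMM without ribosomal and respiratory genes 3925, no expression filter 3868, a mean of at least 5 CPM 3451, DESeq2 4826 and all 12 oocyte libraries 4307. Total counts left 979 higher genes, 695 of them past 2-fold, and DESeq2 gave 2253 higher past 2-fold. The test against a 2-fold change called 1193. With the replicate block, numbers that do not pair the libraries, 411 were called, 49 higher and 362 lower, all past 2-fold; in the knockout libraries it left 2400 (1231 higher, 1169 lower). Leaving out 1 control library gave 1790 to 4663 calls, 624 to 1751 higher and 1163 to 2912 lower, or 624 to 1670 and 1163 to 2745 past 2-fold. Without GV controls 2 and 3 together there were 1921 (472 higher, 1449 lower, all past 2-fold). Leaving out 1 knockout library gave 1739 to 6426 calls, 921 to 2954 higher and 818 to 3472 lower. In the libraries of lowest granulosa markers alone, with 1 post-GV library assumed to vary like the GV libraries, 6667 were called, 3056 higher (2915 past 2-fold) and 3611 lower (3585 past 2-fold). Of the named genes called in the main fit or there, 5 turned their sign: Eif1a at -1.39, Hsd3b1 at -2.20, Actg1 at -0.16, Rplp0 at -1.08 and Eef1a1 at -1.86. Of the 3926 main calls tested there, 3904 kept their sign. Over the named genes and alternatives, 2799 of 3129 values kept their side of the threshold, 240 lost the call and 85 gained one. The 2799 include changes of sign where neither the main fit nor the alternative made a call. In the last 200 bases the element's shares were 41.1% of higher, 20.2% of lower and 28.0% of uncalled genes. The cause of these changes was not tested. With 3 and 4 libraries a group, a gene that missed the threshold is not shown to be unchanged.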

Other observations

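The gene lists can also be read in the knockout libraries, libraries labelled Ythdf2-/- past GV over Mettl3f/f Zp3-Cre+ libraries at GV, where all tested genes have a median log2 fold change of -0.05. Zona and secreted factors held 2 higher and 6 lower among 13 genes (median -0.84), and piRNA and RNAi genes 3 higher and 8 lower among 22 genes (median -0.66). The m6A genes held 7 higher and 3 lower among 18 genes (median 0.52), against 17.8% higher and 16.7% lower over all genes. The decay machinery held 15 higher and 5 lower among 34 genes (median 1.05). Immediate-early genes held 5 higher and 0 lower among 16 genes (median 1.59). Cytosolic ribosomal proteins held 1 higher and 5 lower among 79 genes (median -0.87), and the nuclear respiratory chain 1 higher and 36 lower among 81 genes (median -1.66). Granulosa and cumulus markers held 5 higher and 0 lower among 22 genes (median 1.53), and summed to 2142 and 539.5 CPM in the libraries labelled Ythdf2-/-, against 256, 710.2 and 352 CPM in Cre+ GV libraries. Blood, immune and endothelial markers held 7 higher and 0 lower among 8 genes (median 5.59), and summed to 1369.9 and 141 CPM in the libraries labelled Ythdf2-/-, against 7.37, 8.38 and 8.95 CPM in Cre+ GV libraries. The part of such RNA in the other differences was not tested. Differences between these counts and those of the controls were not tested.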
